A study of Mus musculus with 16 samples.

Results

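The genes described here are 44 mitosis and kinetochore genes, measured in primordial germ cells of mouse embryos. They were chosen by symbol, as the rows that carry the 44 listed names in both deposited expression tables. No measured value entered that rule, but the list was drawn up with earlier results of these data known. All 44 were found, among 26219 genes in each table, and all 44 passed the filter on low values. By role they fall into 8 cyclins, kinases and phosphatases of mitotic entry, 4 members of the chromosomal passenger complex, 5 spindle checkpoint genes, 9 centromere and kinetochore genes, 5 genes of anaphase and proteolysis, 8 of spindle motors and cytokinesis, and 5 of chromosome condensation.

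A cell enters mitosis when cyclin B activates the kinase CDK1, after which condensin and topoisomerase compact the chromosomes and kinetochores capture the spindle. The spindle checkpoint holds the anaphase-promoting complex in check until every kinetochore is attached, and the complex then marks securin and cyclin B for destruction, so that separase can part the sister chromatids. Primordial germ cells, the precursors of eggs and sperm, multiply by mitosis as they settle in the genital ridges; in the fetal ovary they then enter meiotic prophase, and in the fetal testis they move towards mitotic arrest.

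The data are 16 libraries of sorted germ cells, sequenced from the 3′ end of the transcripts. In the floxed set, 4 libraries labelled Prdm1 CKO came from E11.5 embryos (embryonic day) of strain C57BL/6 that carried Prdm1(flox/flox), the Dppa3-MCMP(Tg/0) transgene and the recombination reporter Rosa26(neo-EYFP/+). A further 4 control libraries came from E11.5 embryos of the same strain with the same Prdm1(flox/flox) and Rosa26(neo-EYFP/+) alleles and no Dppa3-MCMP transgene. Dams of both groups were injected with 3 mg of 4-hydroxytamoxifen (4-OHT) per 25 g body weight at E10.5, which induces Cre recombination in cells that express the Dppa3-driven transgene. In the wild-type set, 2 libraries each came from E10.5, E11.5, E13.5 female and E13.5 male embryos of mixed ICR and C57BL/6 background carrying 1 Dppa3(EGFP/+) reporter allele. The 2 sets were tabulated and normalised separately and are not compared with each other. Nothing in the labels tells whether the replicates are separate embryos or litters, so each p-value reflects only the spread among these libraries, and that spread may be technical.

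Values are RPM, read numbers scaled to the same total of gene reads in each library, without division by gene length, so levels are compared between groups and not between genes. Judged by the steps between low values, the floxed libraries hold 2797000 to 5032000 reads and the wild-type libraries 1485000 to 4783000. All 9 germ cell markers listed reached 5 RPM in every group, and their sum was 3649 to 4036 RPM in CKO, 3875 to 4466 RPM in control, 4838 to 4862 RPM at E10.5, then 5336 to 5389 RPM at E11.5, 5811 to 5960 RPM in E13.5 females and 9147 to 9548 RPM in E13.5 males. Dppa3 alone was at 6164 to 6401 RPM in E13.5 males, against 3145 to 3227 RPM at E11.5. Dazl and Ddx4 were also higher in those males, Dnd1 overlapped, and Pou5f1, Kit, Nanos3, Tfap2c and Sox2 were lower. The sum is thus no measure of purity. At E13.5 the 4 meiotic markers summed to 953 and 973 RPM in females, against 106 and 97.5 RPM in males and 25.6 and 26.5 RPM at E11.5. In CKO library 4 the 11 gonadal somatic markers summed to 260 RPM, and that library and control library 1 were least like their own groups, with a mean r across genes of 0.955 and 0.964.

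Together the 44 genes took 0.664% to 0.701% of the reads in every wild-type library, while single genes moved apart. Their summed level was 6798 and 6999 RPM in the E10.5 libraries, 6719 and 6642 RPM at E11.5, 6969 and 7009 RPM in E13.5 females and 6935 and 6983 RPM in E13.5 males. Between E11.5 and E10.5, 3 of the 44 genes were called (6.82%, beside 4.28% of all genes tested). All 3 were chromosome condensation genes, but 0 of these calls held in every alternative setting. The checkpoint gene Bub1, not called, was called in 6 of 16 alternative settings. By E13.5, cyclin B2, CENP-F, separase and the condensin core gene Smc4 were higher than at E11.5. Aurora A, Aurora B, CENP-A and the condensin gene Ncapd2 were lower, and the sexes differed at several of these genes.

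**Figure D1:**
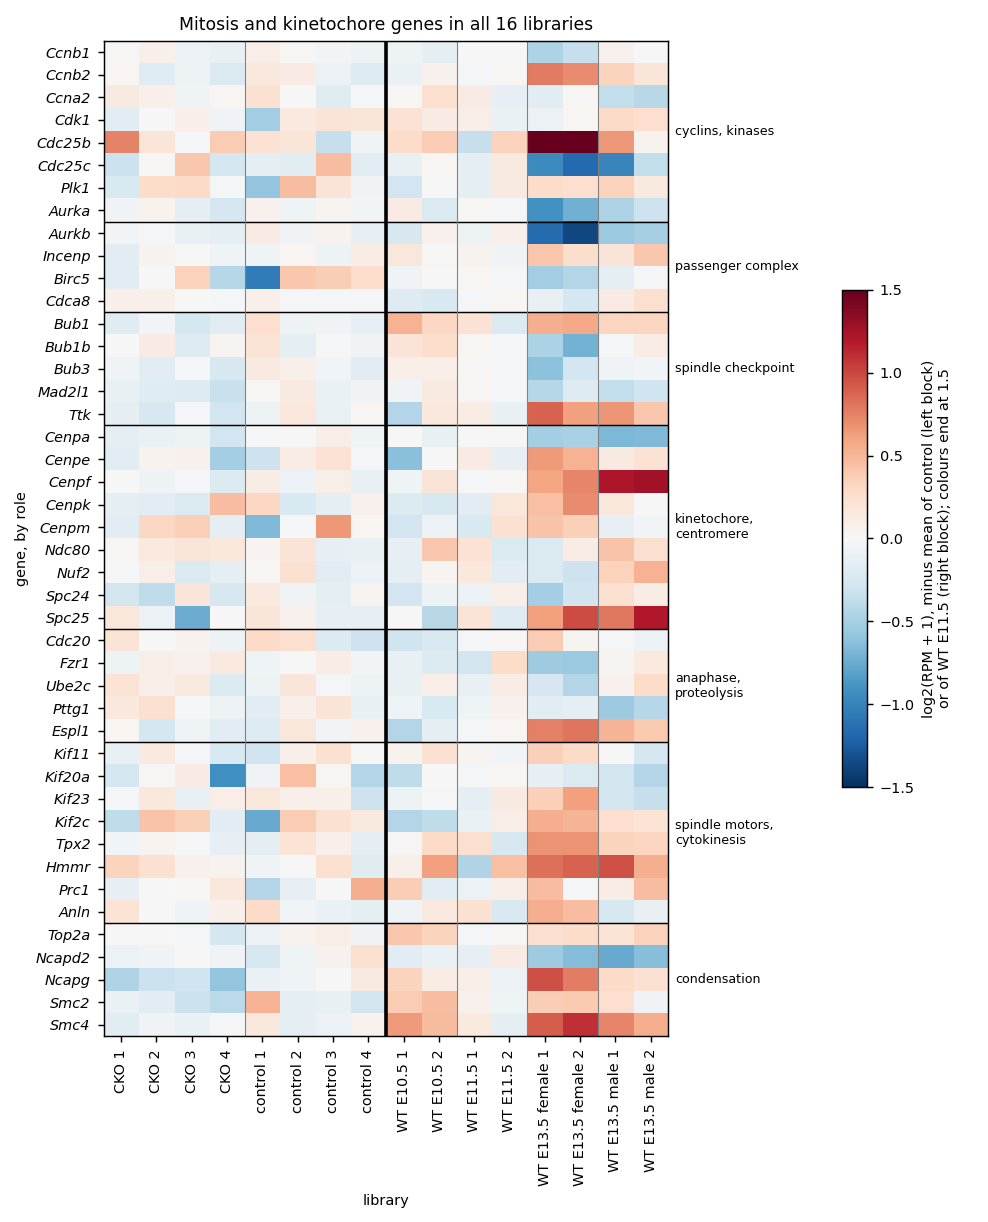
Level of the 44 genes (rows, by role) in the 16 libraries (columns), as log2(RPM + 1) minus the mean of the control libraries for the floxed set (left block) or of the E11.5 libraries for the wild-type set (right block). The floxed block is pale throughout apart from single libraries such as control 1, while the E13.5 columns carry rows of both signs, among them Cdc25b, Ccnb2, Cenpf and Smc4 above and Aurkb and Cenpa below E11.5.

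A gene was called when limma, fitted to log2(RPM + 1) over all genes of a table, gave a Benjamini-Hochberg adjusted p under 0.05, and a fold change on this scale understates the change of low genes. At E11.5 against E10.5, 3 of the 44 genes were called, 0 higher and 3 lower, where 4.28% of the 10749 genes tested were called, 2.31% higher and 1.97% lower. In E13.5 females against E11.5, 30 were called (68.2%), 18 higher and 12 lower, against 51.2% of all genes, 31.2% higher and 20.0% lower. In E13.5 males against E11.5, 19 were called (43.2%), 12 higher and 7 lower, against 38.2% of all genes, 22.3% higher and 15.9% lower. In E13.5 females against males, 24 were called (54.5%), 11 higher and 13 lower, against 37.6% of all genes, 21.2% higher and 16.4% lower.

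The median log2 fold change of the 44 genes was 0.24 in E13.5 females against E11.5, beside 0.13 over all genes tested, and 0.17 in E13.5 males against E11.5, beside 0.11 over all genes. Between the E13.5 sexes it was 0.11, beside 0.05 over all genes. With median-ratio scaling in place of RPM, the median of all genes moved by -0.11 in females and -0.08 in males, and the members then divided into 14 higher and 15 lower in females and 6 higher and 9 lower in males, both against E11.5. The change of either sex from E11.5 uses the same E11.5 libraries, so the values are set side by side and no overlap is counted. Because that baseline is shared, the comparison of females with males gives the same values as a difference in change since E11.5. The E11.5 libraries carry no sex label, so a sex difference already present then cannot be told from a later one. In bulk samples such as these, fewer cells in mitosis and less RNA per cell cannot be told apart.

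**Figure D2:**
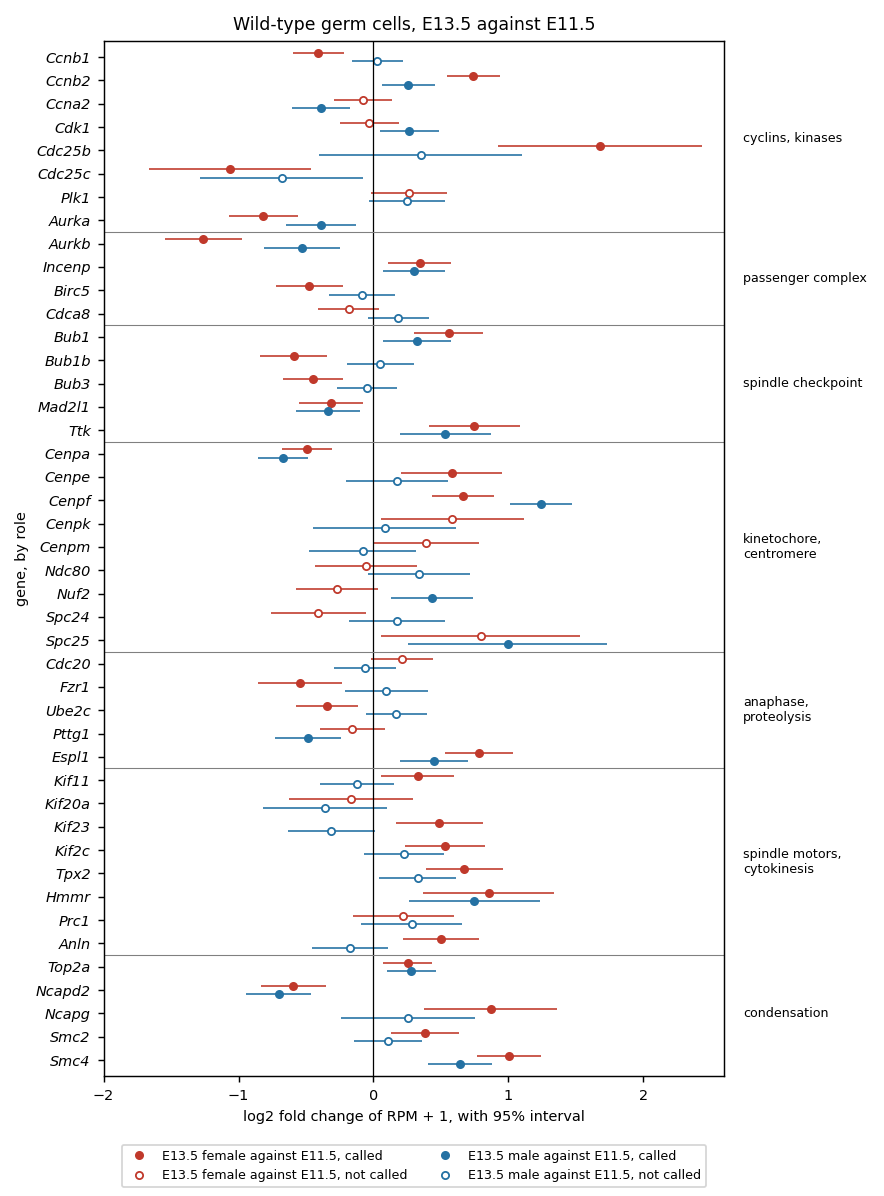
Log2 fold change of RPM + 1 for each gene (rows, by role) in E13.5 females (red) and E13.5 males (blue) against E11.5, with 95% intervals and filled points where the gene was called. Of the 8 spindle motor and cytokinesis genes, 6 are filled to the right of 0 in females and 1 in males. Of all genes tested, 31.2% were called higher in females and 22.3% in males.

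Among the genes of mitotic entry, the B-type cyclins moved in opposite directions in females. Ccnb2, which encodes cyclin B2 (Entrez gene 12442, chromosome 9, 70407689 to 70421554, GRCm38), was at 301 and 337 RPM at E10.5, then 319 and 325 RPM at E11.5, 552 and 526 RPM in E13.5 females and 405 and 366 RPM in E13.5 males. Ccnb1, which encodes cyclin B1 (Entrez gene 268697, chromosome 13, 100778739 to 100786486), was at 436 and 420.0 RPM at E10.5, then 460.0 and 459.8 RPM at E11.5, 333 and 360.4 RPM in E13.5 females and 481 and 459 RPM in E13.5 males. Female libraries thus lay above all other wild-type libraries for Ccnb2 and below all of them for Ccnb1.

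In females against E11.5 the log2 fold change was 0.74 ± 0.10 (SE) for Ccnb2 (limma, adjusted p = 3.83e-07) and -0.41 ± 0.09 for Ccnb1 (adjusted p = 0.000521). In males against E11.5, Ccnb2 rose by 0.26 ± 0.10 (adjusted p = 0.0349) and Ccnb1 was at 0.03 ± 0.09 (adjusted p = 0.824, 95% interval -0.16 to 0.22). The sexes differed in both genes, by 0.48 ± 0.10 for Ccnb2 and -0.44 ± 0.09 for Ccnb1 on the log2 scale, female minus male (adjusted p = 0.000218 and 0.000382). The ratio of Ccnb2 to Ccnb1 RPM within a library, which carries the unknown read yield of each gene and is read only across groups, was 0.690 and 0.803 at E10.5, then 0.693 and 0.707 at E11.5, 1.66 and 1.46 in E13.5 females and 0.842 and 0.798 in E13.5 males. Both female ratios lay above those of all other wild-type libraries.

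**Figure D3:**
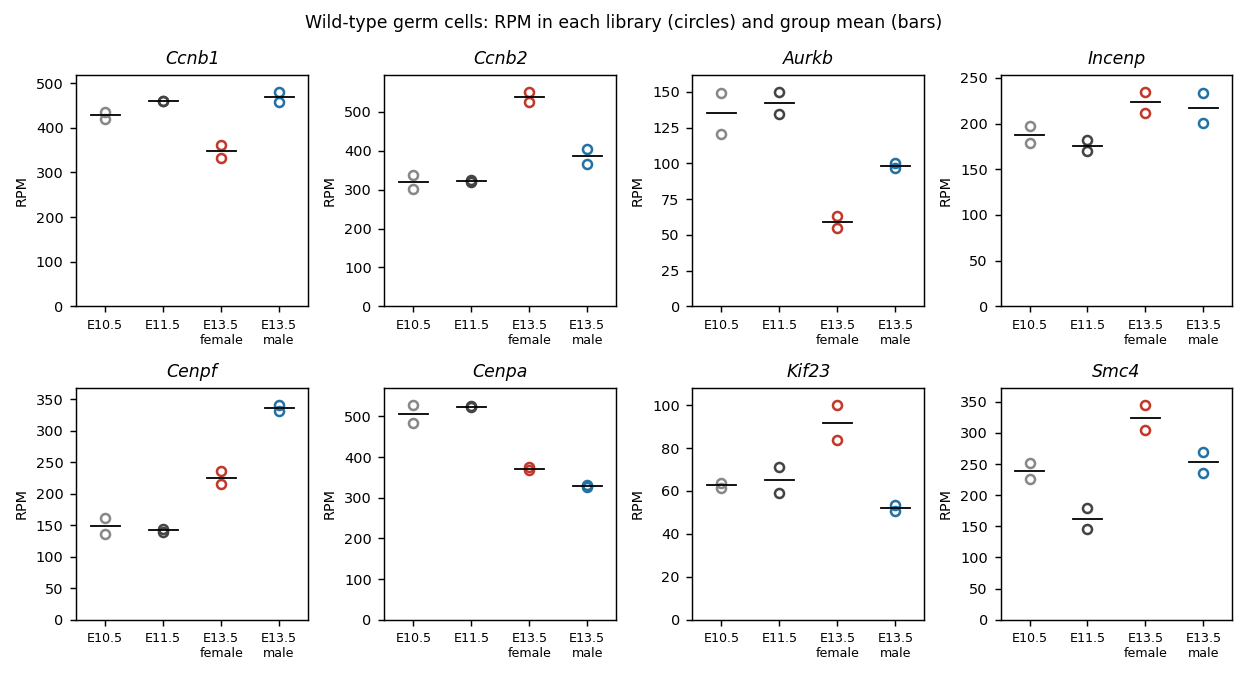
RPM of 8 genes in each wild-type library (circles) with the group mean (bars), every vertical axis starting at 0. Ccnb2 and Smc4 are highest in E13.5 females, at 526 to 552 and 304 to 345 RPM, Cenpf is highest in E13.5 males, at 331 and 341 RPM, and Aurkb is lowest in E13.5 females, at 54.5 and 63.3 RPM.

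The promoters of these cyclin genes and of Cenpf are shown because the genes changed in different patterns while sharing CCAAT boxes, the element bound by the factor NF-Y in many cell cycle promoters. They are given 5′ to 3′ on the gene's strand from 150 bases before to 14 after the RefSeq start (GRCm38.p6), with CCAAT and the cell cycle homology cores TTTGAA and TTCGAA in capitals, searched on both strands.
Ccnb2, chr9:70421540-70421704, minus strand: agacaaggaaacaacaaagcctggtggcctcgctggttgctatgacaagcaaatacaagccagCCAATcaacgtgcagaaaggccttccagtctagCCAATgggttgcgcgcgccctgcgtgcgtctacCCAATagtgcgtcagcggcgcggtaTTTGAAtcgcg
Ccnb1, chr13:100786472-100786636, minus strand: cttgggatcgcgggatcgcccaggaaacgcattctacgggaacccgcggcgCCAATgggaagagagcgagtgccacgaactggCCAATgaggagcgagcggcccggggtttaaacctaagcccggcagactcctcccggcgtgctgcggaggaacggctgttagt
Cenpf, chr1:189688072-189688236, minus strand: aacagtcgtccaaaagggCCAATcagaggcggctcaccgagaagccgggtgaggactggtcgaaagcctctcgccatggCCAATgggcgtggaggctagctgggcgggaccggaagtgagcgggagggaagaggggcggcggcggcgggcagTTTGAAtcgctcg

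Successive CCAAT boxes lay 33 and 33 bases apart in Ccnb2, 32 bases apart in Ccnb1 and 61 bases apart in Cenpf. TTTGAA began 4 bases after the start in Ccnb2 and 2 bases after it in Cenpf, and neither core was among the letters of the Ccnb1 window. Windows from 250 bases before to 50 after the start were matched for 36 of the 44 genes. A TTTGAA or TTCGAA core was in 28 of the 36 genes (77.8%), against 21.7% of 27025 genes with a window. CCAAT was in 29 (80.6%), against 41.1%, and in 2 or more places in 18 (50.0%), against 13.3%. Of the genes higher in E13.5 females than at E11.5, 14 of 15 with a window held a core. Of those lower 6 of 10 did, and of those not called 8 of 11, too few genes to tie the core to direction. Such matches describe the letters and are not binding sites.

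Cdc25b and Cdc25c, which encode phosphatases that activate CDK1, also moved apart in females. Cdc25b was low, at 6.77 and 7.36 RPM at E10.5, then 4.04 and 7.12 RPM at E11.5, 22.0 and 17.3 RPM in E13.5 females and 9.02 and 5.63 RPM in E13.5 males. Its females lay above every other wild-type library, by 1.68 ± 0.37 against E11.5 (limma, adjusted p = 0.00041) and by 1.33 ± 0.37 against males (adjusted p = 0.0052). Cdc25c was at 10.7 and 9.05 RPM in E13.5 females, against 19.5 and 23.9 RPM at E11.5, a log2 fold change of -1.06 ± 0.29 (adjusted p = 0.00365). Male libraries had 10.4 and 16.6 RPM, without a call against E11.5 (-0.68 ± 0.29, adjusted p = 0.0684).

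Aurka, which encodes the spindle pole kinase Aurora A, was at 202 and 159 RPM at E10.5, then 188 and 183 RPM at E11.5 and 98.5 and 112 RPM in E13.5 females. In E13.5 males it was at 135 and 149 RPM, between the females and the earlier stages with no overlap. It fell in both sexes, by 0.82 ± 0.13 in females and 0.39 ± 0.13 in males on the log2 scale (limma, adjusted p = 5.73e-06 and 0.0167), and females were lower than males (-0.43 ± 0.13, adjusted p = 0.00843). Ccna2, which encodes cyclin A2, was at 340.4 and 388 RPM in E13.5 females and 297 and 287 RPM in E13.5 males, against 416 and 352 RPM at E11.5. It fell in males (-0.39 ± 0.11, adjusted p = 0.00417) and was at -0.07 ± 0.11 in females (adjusted p = 0.579), the sexes differing by 0.32 ± 0.11 (adjusted p = 0.0184).

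Cdk1 itself, the kinase that cyclins A and B activate, was at 244 and 229.5 RPM at E10.5, then 224 and 197 RPM at E11.5, 198 and 214 RPM in E13.5 females and 256 and 249.7 RPM in E13.5 males. It rose in males (0.27 ± 0.11, limma, adjusted p = 0.0492), a call lost in 12 of 16 alternative settings, among them the omission of any single library other than E11.5 replicate 1 (at most 0.287). It was lower in females than in males (-0.30 ± 0.11, adjusted p = 0.0285), a call lost in 6 of 16, among them the omission of any of the 4 E13.5 libraries (at most 0.211). Plk1, which encodes Polo-like kinase 1, was at 124 and 123 RPM in E13.5 females and 131 and 114 RPM in E13.5 males, against 93.6 and 112 RPM at E11.5, and was called in no comparison. In females against E11.5, the calls of Ccnb1, Ccnb2, Cdc25c and Aurka held in all 16 settings. That of Cdc25b held in the 15 settings that tested it, as it did not pass the filter at 20 RPM. In males against E11.5, the Ccnb2 call ended under median-ratio scaling, with no filter and without the mean-variance trend of the fit. It also ended without E11.5 replicate 1, E11.5 replicate 2 or male replicate 1. The male call of Ccna2 ended without the trend or without E11.5 replicate 1. That of Aurka ended with no filter, without the trend, without E11.5 replicate 1 and without male replicate 1. The higher Cdc25b of females against males was not called without female replicate 1 (0.0883) or male replicate 2 (0.0832). The higher Ccna2 ended without male replicate 2 or female replicate 2 (at most 0.237), and the lower Aurka without male replicate 2 or female replicate 1 (at most 0.126).

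The chromosomal passenger complex, which corrects faulty spindle attachments and then acts at the midbody, did not move as a unit. Aurkb, which encodes its kinase Aurora B (Entrez gene 20877, chromosome 11, 69045624 to 69051664), was at 121 and 149 RPM at E10.5, then 135 and 150.0 RPM at E11.5, 63.3 and 54.5 RPM in E13.5 females and 96.5 and 100.0 RPM in E13.5 males. Both sexes lay below all earlier libraries, and females below males. The log2 fold change against E11.5 was -1.26 ± 0.14 in females (limma, adjusted p = 2.31e-08) and -0.53 ± 0.14 in males (adjusted p = 0.0034), and females were lower than males by 0.73 ± 0.14 (adjusted p = 0.000128).

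Incenp, the scaffold on which Aurora B sits, was at 235 and 211 RPM in E13.5 females and 200.4 and 233 RPM in E13.5 males, against 182 and 169 RPM at E11.5. It rose in females by 0.34 ± 0.11 and in males by 0.30 ± 0.11 (limma, adjusted p = 0.0133 and 0.0375), with overlapping sexes. The ratio of Aurkb to Incenp RPM within a library was 0.611 and 0.837 at E10.5, then 0.741 and 0.886 at E11.5, 0.270 and 0.258 in E13.5 females and 0.482 and 0.428 in E13.5 males. The Incenp calls of both sexes ended under median-ratio scaling, without the mean-variance trend of the fit and without E11.5 replicate 2. The female call also ended without female replicate 1. The male call also ended with no filter on low values and without male replicate 2.

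Birc5, which encodes survivin, was at 99.5 and 105 RPM in E13.5 females, 129 and 141 RPM in E13.5 males and 146 and 139.5 RPM at E11.5. It fell in females against E11.5 (-0.48 ± 0.12, limma, adjusted p = 0.00176) and was lower in females than in males (-0.39 ± 0.12, adjusted p = 0.0115). Cdca8, which encodes borealin, was at 175 and 170.0 RPM at E10.5, then 196 and 204 RPM at E11.5, 185 and 166 RPM in E13.5 females and 217 and 237 RPM in E13.5 males. It was called only in females against males (-0.37 ± 0.11, adjusted p = 0.00912). That call of Cdca8 ended without female replicate 2 (0.137) or male replicate 2 (0.0930), and that of Birc5 without female replicate 1 (0.103) or male replicate 2 (0.0996).

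Of the 5 spindle checkpoint genes, Ttk and Bub1 rose and Bub1b, Bub3 and Mad2l1 fell in E13.5 females against E11.5, where 51.2% of all genes were called. The call of Mad2l1 was lost in 5 of 16 settings and that of Bub3 in 2. Ttk, which encodes the kinase MPS1 that starts checkpoint signalling, was at 55.1 and 83.9 RPM at E10.5, then 81.5 and 69.5 RPM at E11.5, 139 and 116 RPM in E13.5 females and 119.6 and 99.7 RPM in E13.5 males. Bub1, which encodes the kinase that recruits checkpoint proteins to kinetochores, was at 222 and 192 RPM at E10.5, then 179.8 and 133 RPM at E11.5, 226 and 229 RPM in E13.5 females and 193 and 194 RPM in E13.5 males. For both genes the E13.5 libraries lay above those of E11.5, and for Ttk the sexes overlapped. Ttk rose by 0.75 ± 0.17 in females and 0.53 ± 0.17 in males on the log2 scale (limma, adjusted p = 0.000441 and 0.0119), and Bub1 by 0.56 ± 0.12 and 0.32 ± 0.12 (adjusted p = 0.000494 and 0.0413).

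Bub1b, which encodes BUBR1 of the mitotic checkpoint complex, was at 171 and 179.6 RPM at E10.5, then 153 and 146 RPM at E11.5, 107 and 91.3 RPM in E13.5 females and 148 and 161 RPM in E13.5 males. Females lay below every other wild-type library, and males overlapped E11.5. The log2 fold change was -0.59 ± 0.12 in females against E11.5 (limma, adjusted p = 0.000209), 0.05 ± 0.12 in males against E11.5 (adjusted p = 0.780) and -0.64 ± 0.12 in females against males (adjusted p = 0.000131). Bub3, its binding partner, was at 180.0 and 226 RPM in E13.5 females, 266 and 267 RPM in E13.5 males and 279 and 272 RPM at E11.5, and fell in females against E11.5 (-0.45 ± 0.11, adjusted p = 0.00109) and against males (-0.40 ± 0.11, adjusted p = 0.00424).

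Mad2l1, which encodes the CDC20 inhibitor MAD2, was at 149 and 175 RPM in E13.5 females and 155 and 163 RPM in E13.5 males, against 203 and 199 RPM at E11.5. It fell in both sexes, by 0.31 ± 0.12 and 0.33 ± 0.12 on the log2 scale (limma, adjusted p = 0.0255 and 0.0229), and the sexes overlapped. The female calls of Ttk, Bub1 and Bub1b held in all 16 settings, while Bub3 was not called without female replicate 1 (adjusted p = 0.187 against males, at most 0.0793 against E11.5). In males the Ttk call ended without E11.5 replicate 2 (0.109) or male replicate 1 (0.145), the Bub1 call without any single library other than E11.5 replicate 1 (0.0537 to 0.570). The male Mad2l1 call ended without any of 4 libraries, the E11.5 and male ones (0.0524 to 0.117). In females Mad2l1 ended without E11.5 replicate 1, E11.5 replicate 2 or female replicate 1 (at most 0.294).

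At the centromere, Cenpa fell and Cenpf rose in both sexes. Cenpa, which encodes the histone variant that marks the centromere (chromosome 5, 30666877 to 30674837), was at 528 and 485 RPM at E10.5, then 526 and 523 RPM at E11.5, 368 and 375 RPM in E13.5 females and 327 and 331 RPM in E13.5 males. Its log2 fold change against E11.5 was -0.49 ± 0.09 in females and -0.67 ± 0.09 in males (limma, adjusted p = 5.44e-05 and 1.14e-06). The sexes did not overlap, but their difference of 0.18 ± 0.09 was not called (adjusted p = 0.133).

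Cenpf, which encodes a large outer kinetochore and microtubule-binding protein that accumulates before mitosis (Entrez gene 108000, chromosome 1, 189640606 to 189688107), was at 136 and 162 RPM at E10.5, then 140.1 and 144 RPM at E11.5, 215 and 237 RPM in E13.5 females and 331 and 341 RPM in E13.5 males. Males were highest, females next, and the earlier stages overlapped below them. The log2 fold change against E11.5 was 0.67 ± 0.11 in females and 1.24 ± 0.11 in males (limma, adjusted p = 1.82e-05 and 8.53e-10), and females were lower than males (-0.57 ± 0.11, adjusted p = 0.000185). All these calls of Cenpf and Cenpa held in all 16 settings. The ratio of Cenpf to Cenpa RPM within a library was 0.583 and 0.631 in E13.5 females and 1.01 and 1.03 in E13.5 males, against 0.266 and 0.275 at E11.5.

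The NDC80 complex, which couples kinetochores to microtubules, is encoded by Ndc80, Nuf2, Spc24 and Spc25. Nuf2 was at 72.7 and 82.0 RPM at E10.5, then 88.9 and 71.7 RPM at E11.5, 68.4 and 64.1 RPM in E13.5 females and 102 and 116 RPM in E13.5 males. It rose in males (0.43 ± 0.15, limma, adjusted p = 0.0214), was at -0.27 ± 0.15 in females (adjusted p = 0.136), and was lower in females than in males (-0.70 ± 0.15, adjusted p = 0.000435). Spc24 was at 37.8 and 44.1 RPM in E13.5 females and 64.5 and 58.8 RPM in E13.5 males, and was lower in females (-0.58 ± 0.17, adjusted p = 0.00915).

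Ndc80 had the same sign without a call, at 50.0 and 63.0 RPM in E13.5 females and 79.2 and 69.0 RPM in E13.5 males (-0.39 ± 0.18, limma, adjusted p = 0.0962). Spc25 was near the filter, at 11.7 and 15.8 RPM in E13.5 males and 10.2 and 13.4 RPM in E13.5 females, against 7.41 and 5.41 RPM at E11.5. It rose in males (0.99 ± 0.36, adjusted p = 0.0296) and was not called in females, but the sexes overlapped. The male rise of Nuf2 ended without E11.5 replicate 2 (0.203) or male replicate 2 (0.172), that of Spc25 without the same libraries (at most 0.205), and the lower Spc24 of females without female replicate 1 (0.120) or male replicate 1 (0.0746). The lower Nuf2 of females against males held in all 16 settings.

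Cenpe, which encodes a kinetochore motor, was at 33.4 and 52.5 RPM at E10.5, then 57.2 and 47.8 RPM at E11.5, 81.7 and 75.7 RPM in E13.5 females and 57.4 and 60.9 RPM in E13.5 males. It rose in females (0.58 ± 0.18, limma, adjusted p = 0.0102), a call that ended without E11.5 replicate 2 (0.0919) or female replicate 1 (0.0847). Cenpk and Cenpm, of the inner centromere network, were highest in females, at 25.5 and 30.7 RPM and at 54.4 and 51.8 RPM, but neither was called in any comparison.

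Among the anaphase genes, separase and its inhibitor securin moved apart in males. Espl1, which encodes separase, was at 89.4 and 109 RPM at E10.5, then 119 and 124 RPM at E11.5, 205 and 213 RPM in E13.5 females and 173 and 159 RPM in E13.5 males. It rose by 0.78 ± 0.12 in females and 0.45 ± 0.12 in males on the log2 scale (limma, adjusted p = 7.05e-06 and 0.00492), and was higher in females than in males (0.33 ± 0.12, adjusted p = 0.0333). Pttg1, which encodes securin, was at 154 and 158 RPM in E13.5 females and 119 and 129 RPM in E13.5 males, against 166 and 181 RPM at E11.5. It fell in males (-0.49 ± 0.12, adjusted p = 0.0017) and was higher in females than in males (0.33 ± 0.12, adjusted p = 0.0284). The ratio of Espl1 to Pttg1 RPM within a library was 1.33 and 1.35 in E13.5 females and 1.45 and 1.23 in E13.5 males, against 0.713 and 0.683 at E11.5.

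Ube2c, which encodes the ubiquitin-conjugating enzyme of the anaphase-promoting complex, was at 247 and 217 RPM in E13.5 females and 308 and 356 RPM in E13.5 males, against 272 and 317 RPM at E11.5. Fzr1, which encodes CDH1, the activator of the complex after anaphase, was at 74.0 and 72.4 RPM in E13.5 females and 110.2 and 119 RPM in E13.5 males, against 88.2 and 130.1 RPM at E11.5. Both were lower in females than in males, Ube2c by 0.51 ± 0.11 and Fzr1 by 0.64 ± 0.15 (limma, adjusted p = 0.000558 and 0.00132), and both fell in females against E11.5 (-0.34 ± 0.11 and -0.54 ± 0.15, adjusted p = 0.0114 and 0.00375). Cdc20, its activator in mitosis, was at 291 and 231 RPM in E13.5 females and 218 and 209.9 RPM in E13.5 males, and was called in no comparison (0.27 ± 0.11 for females against males, adjusted p = 0.0557).

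The Fzr1 fall ended without E11.5 replicate 2 (adjusted p = 0.167) and that of Ube2c without E11.5 replicate 2 (0.145) or female replicate 2 (0.163). The male rise of Espl1 ended without male replicate 1 (0.0563), its sex difference without any of the 4 E13.5 libraries (at most 0.190), and that of Pttg1 without either female library or male replicate 1 (0.103 to 0.162). The fall of Pttg1 in males and the rise of Espl1 in females held in all 16 settings.

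Of the 8 spindle motor and cytokinesis genes, 6 rose and 0 fell in females against E11.5, where 31.2% of all genes were higher and 20.0% lower, and Kif20a and Prc1 were not called. In males against E11.5, 1 of the 8 rose and 0 fell, where 22.3% of all genes were higher and 15.9% lower. In females against males 4 were higher, 0 were lower and 4 were not called. There 21.2% of all genes were higher and 16.4% lower. Kif23, which encodes a motor of the central spindle (chromosome 9, 61917277 to 61946810), was at 61.4 and 63.7 RPM at E10.5, then 59.3 and 71.2 RPM at E11.5, 83.6 and 100.0 RPM in E13.5 females and 53.4 and 50.7 RPM in E13.5 males. Anln, which encodes the contractile ring scaffold anillin, was at 171 and 161 RPM in E13.5 females and 99.2 and 108 RPM in E13.5 males, against 137 and 99.9 RPM at E11.5. For both genes females lay above every male and E11.5 library, and males lay below E11.5 for Kif23 and overlapped it for Anln.

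Females exceeded males by 0.80 ± 0.16 for Kif23 and 0.68 ± 0.14 for Anln on the log2 scale (limma, adjusted p = 0.000188 and 0.000294), and both calls held in all 16 settings. Kif11, which encodes the motor that separates the spindle poles, was at 130.2 and 124 RPM in E13.5 females, against 102 and 84.9 RPM in E13.5 males (0.45 ± 0.13, adjusted p = 0.00884). Tpx2, which encodes an activator of Aurora A on spindle microtubules, was at 174 and 174 RPM in E13.5 females and 138 and 136 RPM in E13.5 males, against 129 and 92.0 RPM at E11.5. It rose in females against E11.5 (0.67 ± 0.14, adjusted p = 0.000207), and its difference between the sexes was called (0.35 ± 0.14, adjusted p = 0.0495) but lost in 10 of 16 settings, among them the omission of any E10.5 or E13.5 library (at most 0.224).

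Kif2c, which encodes a microtubule depolymerase at centromeres, was at 52.4 and 54.7 RPM at E10.5, then 66.7 and 76.3 RPM at E11.5, 105 and 102 RPM in E13.5 females and 84.8 and 82.4 RPM in E13.5 males. It rose in females against E11.5 (0.53 ± 0.14, limma, adjusted p = 0.00324). Hmmr, which encodes a spindle-associated hyaluronan receptor, was at 52.3 and 54.3 RPM in E13.5 females and 57.1 and 42.6 RPM in E13.5 males, against 20.9 and 40.1 RPM at E11.5, and rose in both sexes (0.85 ± 0.24 and 0.75 ± 0.24, adjusted p = 0.00363 and 0.0134). Kif23, Kif11 and Anln also rose in females against E11.5 (0.49 ± 0.16, 0.33 ± 0.13 and 0.50 ± 0.14, adjusted p = 0.0111, 0.0418 and 0.00341). Prc1, a bundler of spindle microtubules, and Kif20a, a cytokinesis motor, were called in no comparison; Kif20a overlaps Cdc23 over 4930 bases and the strand of counting is not given in the sources used here.

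Against E11.5, the female calls of Kif2c and Tpx2 held in all 16 settings. That of Anln ended without the trend or E11.5 replicate 2, and that of Kif23 without E11.5 replicate 1 or female replicate 2. That of Hmmr ended with no filter, without the trend or without E11.5 replicate 1. That of Kif11 ended under median-ratio scaling, with no filter, without the trend, and without either E11.5 or either female library. In males the Hmmr call ended without E11.5 replicate 1 (0.358) or male replicate 1 (0.174), and the higher Kif11 of females against males ended without female replicate 1 (0.0849) or male replicate 2 (0.134).

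**Figure D4:**
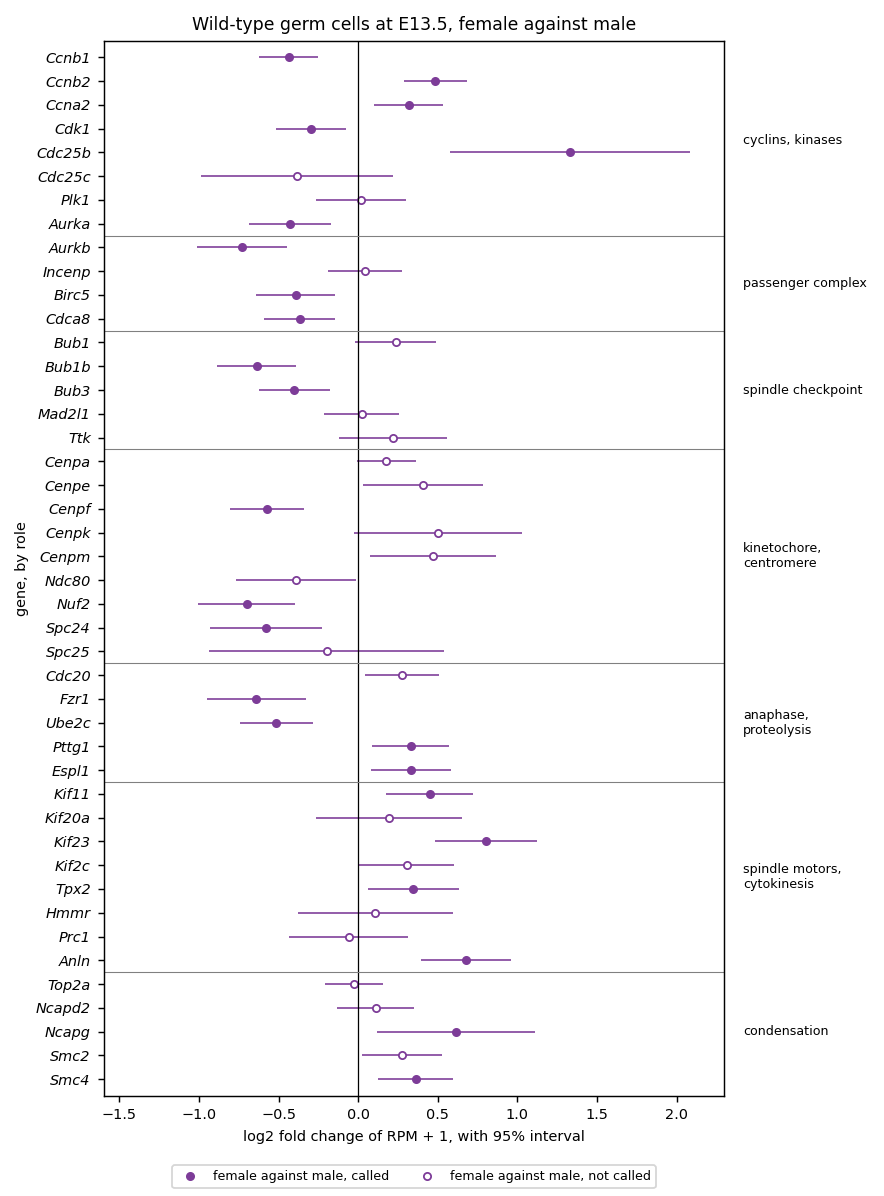
Log2 fold change of RPM + 1 in E13.5 females against E13.5 males for each gene (rows, by role), with 95% intervals and filled points where the gene was called. The called motor and cytokinesis genes lie to the right of 0 (0.35 to 0.80) and the called passenger complex, checkpoint and kinetochore genes to the left (-0.73 to -0.37).

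Condensation genes were those called between E11.5 and E10.5. Smc4, a core subunit of both condensins (Entrez gene 70099, chromosome 3, 69004738 to 69034623), was at 251 and 225 RPM at E10.5, then 179 and 145 RPM at E11.5, 304 and 345 RPM in E13.5 females and 269 and 236 RPM in E13.5 males. It was lowest at E11.5, where its libraries lay below those of every other stage. Smc2, its partner, was at 133 and 121 RPM at E11.5, against 165 and 174 RPM at E10.5, and Top2a, which encodes the topoisomerase that untangles sister chromatids, was at 463 and 473 RPM at E11.5, against 619.8 and 593 RPM at E10.5.

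The log2 fold change at E11.5 against E10.5 was -0.56 ± 0.12 for Smc4, -0.42 ± 0.12 for Smc2 and -0.37 ± 0.09 for Top2a (limma, adjusted p = 0.00425, 0.0473 and 0.0125). These calls depended on single libraries. Without E10.5 replicate 1 all 3 ended (adjusted p = 0.143 for Smc4, 0.190 for Smc2 and 0.173 for Top2a), that of Smc4 also without E11.5 replicate 2 (0.0732), that of Top2a without E10.5 replicate 2 (0.0795), and that of Smc2 without any E10.5, E11.5 or female library (0.0503 to 0.240). Erythroid markers summed to 14.8 and 5.98 RPM at E11.5, against 224 and 213 RPM at E10.5, with 4 of the 6 at 5 RPM or more at E10.5. The 11 gonadal somatic markers summed to 6.06 and 7.12 RPM at E11.5, against 60.5 and 64.3 RPM at E10.5, and the part of either in these falls was not tested.

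No gene of the other roles passed the test between these stages. Bub1, the checkpoint gene with the smallest p, was at 179.8 and 133 RPM at E11.5, against 222 and 192 RPM at E10.5 (-0.42 ± 0.12, limma, adjusted p = 0.0514), and was called in 6 of 16 settings, among them that without E11.5 replicate 1 (0.00576). Kif2c, the motor gene with the smallest p, was at 66.7 and 76.3 RPM at E11.5, against 52.4 and 54.7 RPM at E10.5 (0.41 ± 0.14, adjusted p = 0.103). Espl1, Cdca8 and Cdk1, named by the same rule for their roles, had adjusted p from 0.179 to 0.401.

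At E13.5 the condensin genes parted. Smc4 rose by 1.00 ± 0.12 in females and 0.64 ± 0.12 in males against E11.5 (limma, adjusted p = 5.50e-08 and 6.93e-05), and females were higher than males (0.36 ± 0.12, adjusted p = 0.0151). Ncapd2, which encodes a regulatory subunit of condensin I, was at 184 and 191 RPM at E10.5, then 188 and 223 RPM at E11.5, 141 and 129.9 RPM in E13.5 females and 120.2 and 131 RPM in E13.5 males. It fell by 0.59 ± 0.12 in females and 0.70 ± 0.12 in males on the log2 scale (adjusted p = 0.00015 and 2.87e-05). The ratio of Smc4 to Ncapd2 RPM within a library was 1.37 and 1.18 at E10.5, then 0.953 and 0.652 at E11.5, 2.16 and 2.65 in E13.5 females and 2.24 and 1.81 in E13.5 males.

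Ncapg, another condensin I subunit, was at 35.5 and 30.7 RPM in E13.5 females, 21.7 and 20.8 RPM in E13.5 males and 18.9 and 16.5 RPM at E11.5. It rose in females (0.87 ± 0.24, limma, adjusted p = 0.00385) and was higher in females than in males (0.61 ± 0.24, adjusted p = 0.0459); it overlaps Lcorl, a gene at up to 133 RPM in the wild-type set, over 3367 bases. Top2a was at 552 and 565 RPM in E13.5 females and 541 and 597 RPM in E13.5 males, and rose by 0.25 ± 0.09 and 0.28 ± 0.09 against E11.5 (adjusted p = 0.0174 and 0.0127). Smc2 was at 163 and 167 RPM in E13.5 females and rose against E11.5 (0.38 ± 0.12, adjusted p = 0.0115). The rises of Smc4, Smc2 and Top2a and their falls from E10.5 rest on the same E11.5 libraries. At E10.5 Top2a was at 619.8 and 593 RPM, above the E13.5 females and overlapping the males. E13.5 females overlapped E10.5 for Smc2 (165 and 174 RPM), as did males for Smc4 (251 and 225 RPM). E13.5 against E10.5 was not tested.

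Against E11.5 the calls of Smc4 and Ncapd2 held in all 16 settings in both sexes. Against males, the higher Smc4 of females ended without female replicate 2 (adjusted p = 0.196) or male replicate 2 (0.166), and that of Ncapg without any of the 4 E13.5 libraries (0.104 to 0.265). The female rise of Ncapg ended without female replicate 1 (0.0602). In females the rises of Top2a and Smc2 ended under median-ratio scaling, without the trend and without either female library. That of Top2a also ended without E11.5 replicate 1, and that of Smc2 without E11.5 replicate 2. Among left-out libraries, the male rise of Top2a ended without male replicate 2.

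A wider list of 101 other mitosis genes in the tables, of which 100 could be tested in the wild-type set, moved in both directions too. In E13.5 females against E11.5, 30 were higher and 16 lower, in males 26 and 14, and in females against males 17 and 16. With 100 genes these counts are also percentages. Over all genes the shares higher and lower were 31.2% and 20.0% in females, 22.3% and 15.9% in males and 21.2% and 16.4% between the sexes. The list thus stood near the background. Wee1, which encodes the kinase that restrains CDK1, was at 185 ± 5.08 RPM in E13.5 females against 108 ± 8.89 RPM at E11.5 (SD, n = 2 each), a log2 fold change of 0.77 ± 0.12 (limma, adjusted p = 8.52e-06). Mybl2, which encodes the transcription factor B-MYB that drives genes of late interphase and mitosis, was at 151 ± 4.53 RPM in E13.5 females and 213 ± 7.28 RPM in E13.5 males against 363 ± 22.4 RPM at E11.5 (-1.26 ± 0.11 and -0.76 ± 0.11, adjusted p = 2.69e-10 and 2.25e-06).

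In the same list, Cks1b, which encodes a small CDK-binding protein, was at 137 ± 3.07 RPM in E13.5 females against 267 ± 10.1 RPM in E13.5 males (SD, n = 2 each; -0.96 ± 0.12, limma, adjusted p = 3.40e-07). Cdc26, which encodes a subunit of the anaphase-promoting complex, was at 14.7 ± 0.223 RPM in E13.5 females against 36.4 ± 5.24 RPM in E13.5 males (-1.25 ± 0.20, adjusted p = 1.91e-05). Kif4, which encodes a chromosome-bound motor and lies on chromosome X (100626065 to 100727271), was at 64.0 ± 7.16 RPM in E13.5 females against 30.1 ± 3.72 RPM in E13.5 males (1.06 ± 0.20, adjusted p = 0.000146). At E11.5 against E10.5, 1 of the 100 was higher, the ubiquitin-conjugating enzyme gene Ube2s (0.65 ± 0.10, adjusted p = 0.000136), and 3 were lower, among them the cohesin gene Stag1 (-0.69 ± 0.14, adjusted p = 0.00371), a call lost without E10.5 replicate 1 or E11.5 replicate 2 (at most 0.159).

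In the floxed set the question is whether germ cells labelled as lacking Prdm1 differ in these genes after the injection at E10.5. CKO and control also differ in the Dppa3-MCMP transgene and may differ in how the cells were sorted. The part of either was not tested. Reads of the targeted gene, Prdm1, came to 79.9, 84.1, 76.6 and 89.4 RPM in CKO libraries 1 to 4, against 66.2, 50.7, 63.0 and 73.0 RPM in control libraries 1 to 4 (0.39 ± 0.12 on the log2 scale, limma, adjusted p = 0.164). A 3′ tag can lie outside the deleted part, so this level does not check the labels, and "CKO" below means the libraries so labelled.

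None of the 44 genes was called in CKO against control by limma (0 of 44, where 2.43% of 9384 genes were called, 1.93% higher and 0.501% lower), and 0 were called by voom, a weighted limma fit on the recovered reads. At an unadjusted p under 0.05, 0 were higher and 2 lower, where 6.32% of all genes were higher and 5.67% lower. The log2 fold changes ran from -0.42 to 0.32 with a median of -0.05, beside -0.01 over all genes. All 44 of the 95% intervals lay within a 2-fold change in either direction, and 38 within 1.5-fold. The summed level of the genes was 7799, 7853, 7640 and 7142 RPM in CKO libraries 1 to 4, against 8176, 8155, 7878 and 7558 RPM in control libraries 1 to 4, and the groups overlapped.

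**Figure D5:**
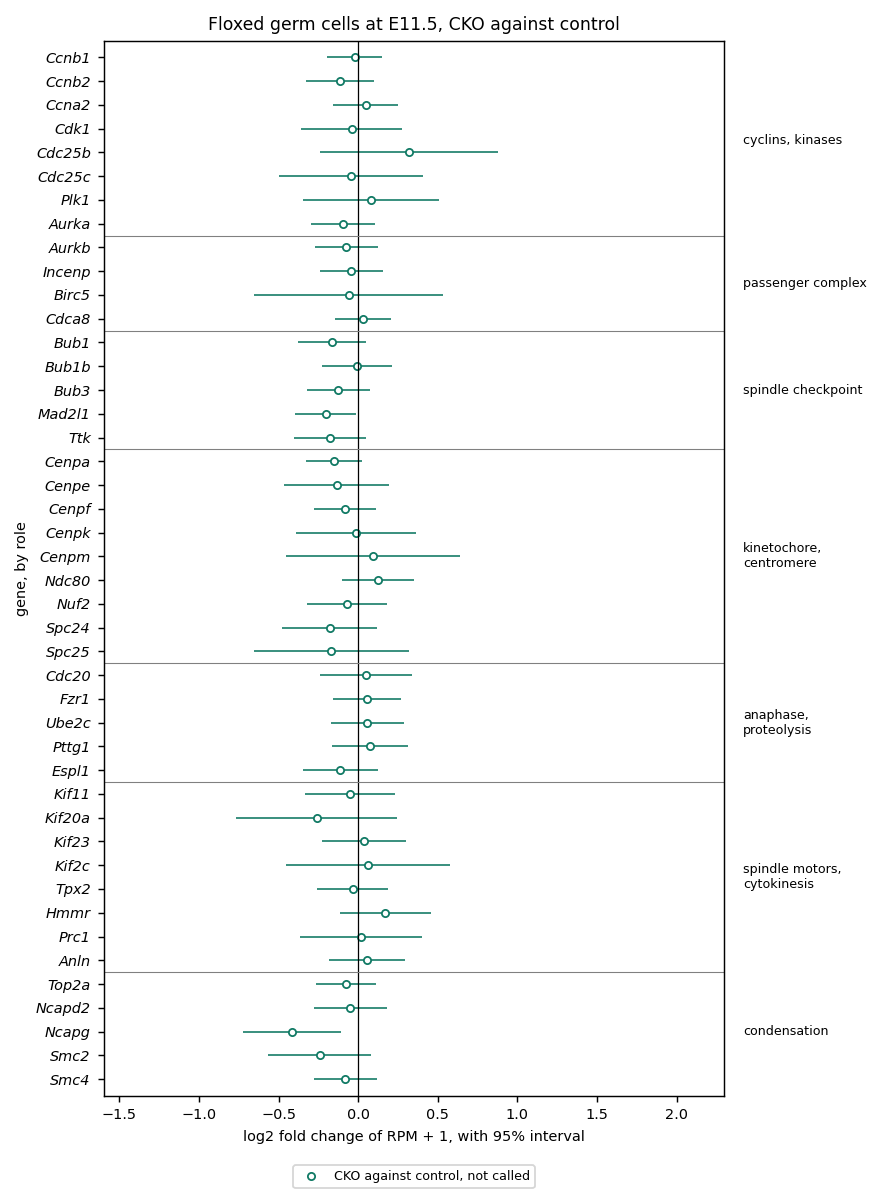
Log2 fold change of RPM + 1 in CKO against control for each gene (rows, by role), with 95% intervals. Every point is open because no gene was called, and the values run from -0.42 (Ncapg) to 0.32 (Cdc25b).

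Of the 44 genes, 3 had groups that did not overlap, 0 higher and 3 lower in CKO; of all genes 8.19% did not overlap, 4.34% higher and 3.86% lower. Ncapg was at 20.2, 22.3, 22.7 and 18.2 RPM in CKO libraries, against 26.2, 27.1, 28.2 and 30.9 RPM in control libraries (-0.42 ± 0.14, limma, adjusted p = 0.205). Mad2l1 was at 269.8, 255, 255 and 231 RPM in CKO libraries, against 294, 320.3, 271 and 280.3 RPM in control libraries (-0.21 ± 0.09, adjusted p = 0.368). Cenpa was at 483, 497, 501 and 434 RPM in CKO libraries, against 523, 527, 565 and 509 RPM in control libraries (-0.15 ± 0.08, adjusted p = 0.514). None of the 3 passed the test, though in each every CKO library lay below every control library.

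In each of the other 4 roles, the gene with the smallest p had overlapping groups. Cdc25b was at 8.13, 5.17, 4.31 and 6.08 RPM in CKO libraries, against 5.30, 5.17, 3.28 and 4.24 RPM in control libraries (0.32 ± 0.26, limma, adjusted p = 0.714). Hmmr was at 55.5, 51.7, 45.9 and 45.4 RPM in CKO libraries, against 42.1, 43.8, 52.1 and 38.4 RPM in control libraries (0.17 ± 0.13, adjusted p = 0.694). For Espl1 and Aurkb the log2 fold changes were -0.11 ± 0.11 and -0.08 ± 0.09 (adjusted p = 0.772 and 0.831).

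The ratio of Ccnb2 to Ccnb1 RPM was 0.821, 0.683, 0.822 and 0.761 in CKO libraries and 0.857, 0.885, 0.791 and 0.751 in control libraries. Ccnb1 averaged 521 ± 31.6 RPM in CKO and 529 ± 27.3 RPM in control (SD, n = 4 each), and Cenpf 248 ± 15.2 RPM in CKO and 263 ± 20.8 RPM in control. Gonadal somatic markers summed to 105, 19.5, 9.76 and 260 RPM in CKO libraries 1 to 4, against 12.9, 73.2, 20.8 and 29.9 RPM in control libraries 1 to 4, with 10 of the 11 at 5 RPM or more in some CKO library and 6 in some control library. Without CKO library 4 and control library 1, 0 of the 43 genes then tested were called.

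Of the wider list, 98 genes were tested in the floxed set, 2 being higher in CKO (2.04%, beside 1.93% of all genes) and 0 lower, a share near the background. Stag2, which encodes a cohesin subunit, was at 33.0, 29.8, 25.5 and 36.1 RPM in CKO libraries, against 26.5, 10.3, 12.5 and 13.2 RPM in control libraries, overlapping through control library 1 (1.03 ± 0.24, limma, adjusted p = 0.0418). Stag2 lies on chromosome X (42149297 to 42277186), and the labels give no sex for the floxed embryos. Hjurp, which encodes the chaperone that loads CENP-A, was at 14.1, 18.3, 8.62 and 9.62 RPM in CKO libraries, against 3.26, 4.36, 7.99 and 2.25 RPM in control libraries (1.37 ± 0.32, adjusted p = 0.0432). The Stag2 call ended without any single library other than control library 1, and the Hjurp call without any single library other than control library 3 (adjusted p at most 0.147 and 0.184).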

How the data were processed

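Total RNA of sorted germ cells was sequenced from the 3′ end, per the labels' protocols. These name 11 PCR cycles for both sets and 1 ng of input RNA for the wild-type set. They name sorting by EYFP and by anti-SSEA-1 without tying either to a group. Control embryos lack the transgene that recombines the EYFP reporter, so CKO and control cells may have been sorted differently. The values are RPM as deposited by the authors, read numbers scaled to the same total of gene reads in each library. The submitters' processing notes name cutadapt 1.3, TopHat 1.4.1, Cufflinks 2.2.0 and the genome build mm10, with no role or order, and the strand of counting is not given in the sources used here. The wild-type set also lists 92 ERCC spike-in rows, which came on top of the gene total and were left out.

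Low values are whole multiples of what 1 read is worth, within 0.05 reads for 99.7% to 99.8% of the values checked, which gave each library's depth. A count of 3 reads corresponds to 0.596 to 1.07 RPM in the floxed set and 0.627 to 2.02 RPM in the wild-type set, a floor that covers counting error only, since PCR reads without molecular identifiers are not independent molecules.

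Genes at 5 RPM or more in at least 4 floxed or 2 wild-type libraries were tested on log2(RPM + 1) with limma 3.58.1 in R 4.3.3, with a mean-variance trend and Benjamini-Hochberg adjustment over all genes of the table, and a gene was called at an adjusted p under 0.05. The 8 floxed libraries entered 1 fit and the 8 wild-type libraries another, without a replicate block. The calculation was tested on simulated data. For each comparison and role, the 3 called genes with the smallest p, or the gene with the smallest p where none was called, were named in full by rule, and the remaining members were added. The 44 genes, the wider list and the markers were chosen with earlier results of these data known. Replicates with the same number did not deviate together throughout, which does not settle whether they are pairs. The labels do not say what the number means, so no pairs were set in the main fit. Alternatives were pseudocounts of 0.1 and 10, no filter, a filter at 20 RPM, median-ratio scaling, no trend, a replicate block, each library left out, the floxed set without control 1 and CKO 4, which earlier results of these data had set apart, and, chosen after seeing the data, voom on the recovered reads. A planned count test was not run, because the deposited values are not counts. Promoter windows came from RefSeq (GRCm38.p6) and gene positions from its annotation of GRCm38.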

Additional observations from a re-analysis of the deposited data

Results flagged for a closer look

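In 7 of 88 sets of 4 floxed libraries (7.95%), 1 library lay farther from its nearest neighbour than Dixon's 95% limit allows, where chance gives about 1 in 20. Control library 1 stood apart for 4 genes. It was at 103 RPM for Cdk1, with the other control libraries at 164 to 170 RPM, at 36.8 RPM for the survivin gene Birc5 (others 93.0 to 102 RPM), at 259 RPM for the borealin gene Cdca8 (others 240.5 to 242 RPM) and at 318 RPM for Smc2 (others 184 to 206 RPM). CKO library 4 stood apart at 52.9 RPM for Cenpk (others 32.7 to 34.4 RPM) and at 569 RPM for Top2a (others 666 to 680.4 RPM). Control library 3 was at 25.6 RPM for Cdc25c (others 16.1 to 16.5 RPM). Gonadal somatic markers summed to 260 RPM in CKO library 4 and 12.9 RPM in control library 1, and their part in these values was not tested.

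E13.5 females and males differed in 24 of the 44 genes (54.5%, limma, adjusted p under 0.05), in the same contrast as above. Of all genes tested 37.6% were called, 21.2% higher and 16.4% lower in females. Only 8 of the 24 calls held in every alternative setting, those of Ccnb1, Ccnb2, Aurkb, Bub1b, Cenpf, Nuf2, Kif23 and Anln. The E11.5 libraries carry no sex label, so a difference already present at E11.5 cannot be told from a later change. Values are female minus male on the log2 scale. Females were higher for 11: Cdc25b by 1.33, Kif23 by 0.80, Anln by 0.68, Ncapg by 0.61, Ccnb2 by 0.48, Kif11 by 0.45, Smc4 by 0.36, Tpx2 by 0.35, Espl1 by 0.33, Pttg1 by 0.33 and Ccna2 by 0.32. For 13 the difference was negative. Among kinetochore and passenger genes it was -0.73 for Aurkb, -0.70 for Nuf2, -0.58 for Spc24, -0.57 for Cenpf, -0.39 for Birc5 and -0.37 for Cdca8. Among the rest it was -0.64 for Bub1b, -0.64 for Fzr1, -0.51 for Ube2c, -0.44 for Ccnb1, -0.43 for Aurka, -0.40 for Bub3 and -0.30 for Cdk1.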

How the results depend on the processing

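No called gene changed direction under any alternative. Where a call is said above to end without a library, other alternatives may also have ended it. Counting the alternatives that tested a gene, calls held in all of them for 17 of 30 genes in E13.5 females against E11.5. They held for 5 of 19 in males against E11.5 and 8 of 24 in females against males. At E11.5 against E10.5 they held for 0 of 3. With no filter on low values, 0 genes were called at E11.5 against E10.5 and 9 in males against E11.5, and without the mean-variance trend 0 and 6, with 11 in females against males. Leaving out 1 library gave 0 in each case for CKO against control, 0 to 3 at E11.5 against E10.5, 22 to 30 in females against E11.5, 11 to 17 in males against E11.5 and 13 to 26 in females against males. The count at E11.5 against E10.5 was 0 without E10.5 replicate 1 and 1 without E10.5 replicate 2 or E11.5 replicate 2. In males it was 12 without E11.5 replicate 2 and 11 without male replicate 1, and in females against males 13 without male replicate 2 or female replicate 1. The uncalled log2 change of Cenpe at E11.5 against E10.5 was 0.31, and with a library left out it ran from -0.0047 (without E10.5 replicate 1), a change of sign, to 0.63. The cause was not tested. Leaving out 1 wild-type library leaves 1 sample in a group, which is assumed to vary like the others. With the replicate block, 0, 4, 30, 18 and 24 genes were called in CKO against control, E11.5 against E10.5, females against E11.5, males against E11.5 and females against males. Same-numbered floxed libraries correlated in their deviations by 0.0198 to 0.252, and CKO and control libraries of different number by -0.229 to 0.183. These ranges overlap, so they do not settle whether the numbers mark pairs. Over all genes, CKO against control gave 228 calls, and 314 with the replicate block. It gave 139 with the filter at 20 RPM, 152 with no filter and 101 to 203 with a library left out. E11.5 against E10.5 gave 460, of which 53.9% higher, and 80 with no filter, 27 without the trend, 100 to 487 with a library left out, and 43.1% higher under median-ratio scaling. Depth limits genes near the floor, among them Cdc25b and Spc25.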
